A study of Mus musculus with 12 samples.

Results

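The 10 genes described here encode chemokines, colony-stimulating factors and interleukin 6, secreted proteins by which a tumour cell can act on blood cells and stroma. They are the chemokines Ccl2, Ccl5, Ccl7, Cxcl1, Cxcl5, Cxcl10 and Cxcl12, the colony-stimulating factors Csf1 and Csf2, and Il6. They were taken by name, whether or not they were expressed, and all 10 have a row among the 55414 gene IDs of the deposited table of raw counts. RNA was sequenced from EO771-tdT-LM2 cells, a wild-type line labelled as breast cancer cells and derived from the mouse mammary tumour line EO771. All 12 libraries came from cells in glucose-deprived medium (10 mg/dl glucose with 1% serum), held there for 30 min, seeded in 12-well plates and treated for 24 h. The 3 control libraries had 0.1% BSA and IgG at 2.5 µg/mL. The 3 GDNF libraries had GDNF, a neurotrophic factor that binds GFRA1 and signals through RET or NCAM1, at 0.2 µg/mL together with the IgG. The 3 anti-NCAM1 libraries had an antibody to NCAM1, a cell adhesion molecule, at 2.5 µg/mL together with BSA. The last 3 libraries had GDNF at 0.2 µg/mL plus anti-NCAM1 at 2.5 µg/mL. No BSA was given with GDNF and no IgG with the antibody, so the groups also differ in these. Each group is a triplicate per the labels, with no word on separate experiments, so the p-values measure the spread between these libraries, which may be technical. Only 1 cell line was used.

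Chemokines bind receptors on leukocytes and set the direction in which those cells move. In the CC family, Ccl2 and Ccl7 act on the receptor Ccr2 of monocytes, and Ccl5 attracts T cells and monocytes. In the CXC family, Cxcl1 and Cxcl5 act on Cxcr2 of neutrophils, Cxcl10 on Cxcr3 of T cells and Cxcl12 on Cxcr4. Csf1 and Csf2 keep macrophages and granulocytes alive and growing, and Il6 signals through Il6ra and the shared chain Il6st to Stat3. Several of these genes are switched on by NF-κB, and in mammary tumours they are studied for the recruitment of macrophages.

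The libraries held 5616398 to 8093754 counts, so that 3 counts were worth 0.371 to 0.534 CPM (counts scaled to the raw library total) in a single library. Such limits, and levels summed over libraries, use raw totals, while the CPM of single libraries and their means use totals scaled by TMM, a factor of 0.956 to 1.05. GDNF replicate 3 stood apart from the other 11 libraries, with 10.2% of its counts on mitochondrial genes against 4.11% to 5.29% and a mean rank correlation of 0.978 with the rest against 0.992 to 0.993. Fold changes of the tested members that include it are given with and without it below. The label of breast cancer cells was checked against markers. The keratin Krt8 was at 536 ± 26.3 CPM (SD over 12 libraries), and 4 of 9 epithelial markers were abundant enough to test. The lowest of those was Krt14, at 2.25 CPM. Of the 31-base words of its transcripts, Krt8 shared 36.0% with 11 other genes, so part of its level may belong to them. Krt5 and Krt19 had no count, and over the 12 libraries Krt18 had 3 counts, Esr1 had 10 and Cdh1, which encodes E-cadherin, had 17. The growth factor receptor genes Pdgfra and Pdgfrb, on the fibroblast list, were at 228 and 43.6 CPM, whereas the other 4 of that list had 0 to 2 counts over the 12 libraries: Dcn had 2, Thy1 had 1, and Lum and Fap had none. Of the 8 leukocyte markers, Adgre1 had no count, Ptprc had 1 count in 12 libraries, and Cd68 and Lyz2 were at 6.65 and 1.70 CPM.

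Of the 10 genes, 1 was well expressed, 2 were low and 7 were at or near 0. Csf1 had 6198 of the 6613 counts that the 10 genes had together in the 12 libraries, Ccl2 had 291 and Ccl7 had 81. Ccl5 had 26, Cxcl10 had 15 and Cxcl1 had 2. Cxcl5, Cxcl12, Csf2 and Il6 had no count in any of the 12 libraries, and 0 counts over all of them, taken as a limit of 3, allow a level of up to 0.0364 CPM. These limits and the intervals below cover counting error only. In bulk RNA, fewer cells making a transcript and less transcript per cell cannot be told apart.

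**Figure D1:**
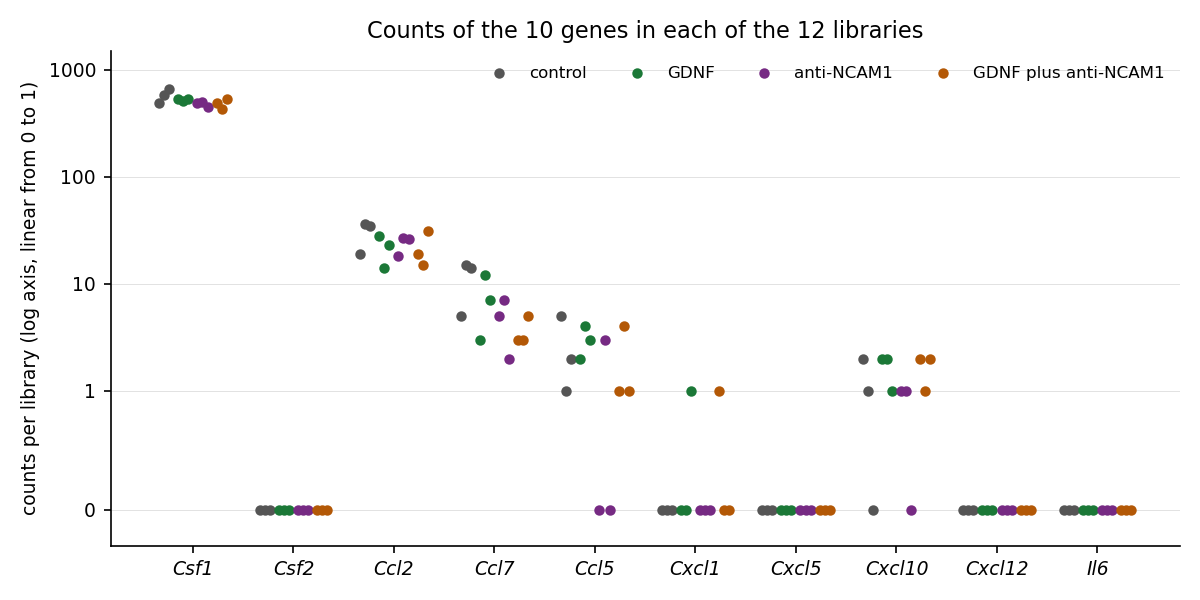
Counts of the 10 genes in each of the 12 libraries on a log axis that is linear from 0 to 1, with 1 point per library coloured by group. Csf1 lay between 433 and 665 counts, Ccl2 between 14 and 36 and Ccl7 between 2 and 15, while 4 genes lay at 0 in every library.

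Levels of different genes are compared as CPM per kb of transcript, with the mean length of a gene's protein-coding transcripts. On that scale Csf1 was at 38.4 (34.5 to 41.6 over the 12 libraries), above 77.1% of the genes tested. Csf1 has 6 coding transcripts of 773 to 4176 bases, and its level per kb would be 18.0 with the longest and 97.5 with the shortest. Ccl2 was at 4.31 CPM per kb (2.56 to 5.88), above 20.7% of the genes tested, and Ccl7 at 1.18 (0.405 to 2.40), above 6.50%. Csf1 was above Ccl2 and Ccl2 above Ccl7 in 12 of 12 libraries, with ranges that did not overlap. The next in the order were not separated: Ccl5, at 0.607 CPM per kb, was below Ccl7 in 9 of 12 libraries, Cxcl10 at 0.153 was below Ccl5 in 10, and Cxcl1 at 0.0243 was below Cxcl10 in 9. The mean level per kb of Csf1 was 8.92 times that of Ccl2.

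Of the pairs of groups, 5 were tested, and the interaction of GDNF with the antibody, by edgeR's quasi-likelihood F test over 11332 genes with enough counts, and GDNF against anti-NCAM1 was not run. Only Csf1, Ccl2 and Ccl7 of the 10 genes entered that test, and Ccl7 passed the limit through 2 control libraries and 1 GDNF library. None of the 3 passed an adjusted p of 0.05 in any of the 6 comparisons, and neither did any other gene: the share of tested genes called was 0% in each. At an unadjusted p under 0.05 there were 2303 genes for GDNF against control, 599 for anti-NCAM1 against control, 221 for GDNF plus anti-NCAM1 against control, 1582 for GDNF plus anti-NCAM1 against GDNF, 284 for GDNF plus anti-NCAM1 against anti-NCAM1 and 1900 for the interaction. DESeq2 called 31 genes for GDNF against control and gave the 3 members no adjusted p there.

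Csf1, on chromosome 3, encodes the growth factor that macrophages and their precursors need, and it was the one abundant member. Its normalised level was 80.5, 74.85 and 79.7 CPM in the control libraries, 76.2, 75.9 and 67.5 with GDNF, 75.8, 71.0 and 71.8 with anti-NCAM1, and 73.6, 75.6 and 81.5 with GDNF plus anti-NCAM1. The group means were 78.4 ± 3.06 CPM for control, 73.2 ± 4.89 for GDNF, 72.9 ± 2.59 for anti-NCAM1 and 76.9 ± 4.10 for both agents (SD, n = 3). The ranges of the groups overlapped in every comparison, and the lowest library, at 67.5 CPM, was GDNF replicate 3.

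The fold change of Csf1 with GDNF against control was 0.934, with a 95% interval of 0.832 to 1.05 (log2 -0.10, SE 0.08, edgeR adjusted p = 0.476). With anti-NCAM1 against control it was 0.930, with an interval of 0.829 to 1.04 (adjusted p = 0.874). With both agents against control it was 0.982, with an interval of 0.875 to 1.10. Without GDNF replicate 3 the log2 difference for GDNF against control was -0.05. The interaction was 0.18 on the log2 scale (SE 0.11, adjusted p = 0.408), and 0.13 without that library.

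**Figure D2:**
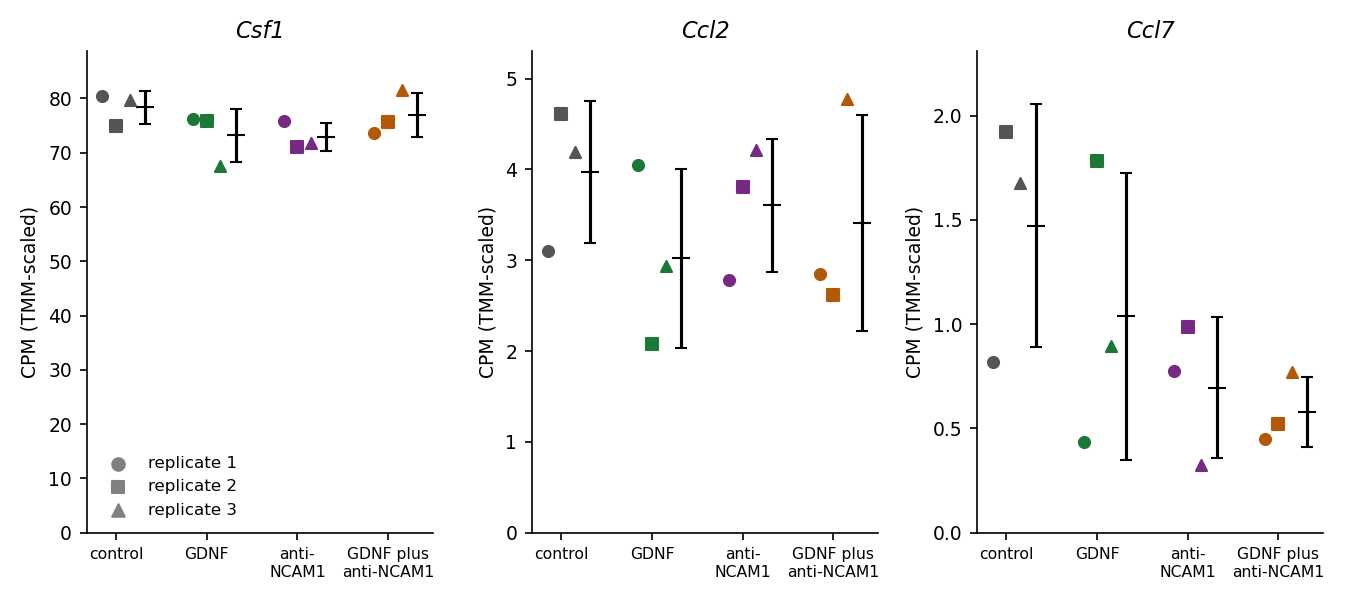
Normalised level (TMM-scaled CPM) of Csf1, Ccl2 and Ccl7 in each library of the 4 groups, with the shape giving the replicate number and the bar the mean ± SD of 3 libraries. Csf1 stayed between 67.5 and 81.5 CPM in all groups, and for Ccl7 the 3 libraries with both agents lay below the 3 control libraries. Ccl7 was tested only through its high control and GDNF libraries, which favoured that order.

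Ccl2, on chromosome 11, encodes the main chemoattractant of monocytes. Its level was 3.10, 4.61 and 4.20 CPM in the control libraries, 4.05, 2.08 and 2.94 with GDNF, 2.79, 3.81 and 4.22 with anti-NCAM1, and 2.84, 2.62 and 4.78 with both. The highest and the lowest library, 4.78 and 2.08 CPM, lay in groups that both had GDNF, and all groups overlapped. The means were 3.97 ± 0.780 CPM for control, 3.02 ± 0.985 for GDNF, 3.60 ± 0.737 for anti-NCAM1 and 3.41 ± 1.19 for both (SD, n = 3).

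The log2 fold change of Ccl2 was -0.41 for GDNF against control (SE 0.30, edgeR adjusted p = 0.445), which is a fold of 0.755 with a 95% interval of 0.485 to 1.17. It was -0.16 for anti-NCAM1 against control (SE 0.30) and -0.23 for both against control (SE 0.30). Without GDNF replicate 3 the value for GDNF against control was -0.39. Leaving out each library in turn moved it between -0.66 (without GDNF replicate 1) and -0.22 (without GDNF replicate 2), and that for both against control between -0.55 and -0.077 (without replicate 3 and replicate 2 of the group with both). These rest on 14 to 36 counts per library. The variance of the counts over the 12 libraries was 1.62 times that of counting alone for Ccl2, against 2.22 times for Ccl7 and 2.33 times for Csf1.

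Ccl7, also on chromosome 11, encodes a second ligand of Ccr2 on monocytes. Its level was 0.816, 1.92 and 1.68 CPM in the control libraries, 0.434, 1.78 and 0.894 with GDNF, 0.774, 0.988 and 0.324 with anti-NCAM1, and 0.449, 0.524 and 0.770 with both. These rest on 5, 15 and 14 counts in the control libraries and 3, 3 and 5 counts in those with both agents. The 3 libraries with both agents lay below the 3 control libraries, and no other comparison of Ccl7 separated the groups. That was the one separated case among 15 for the 3 genes tested in 5 pairs of groups, and 6.26% of all tested genes were separated in that direction in that comparison. Of all tested genes, 7.04% were separated upwards with both agents against control. For GDNF against control 9.9% were separated upwards and 7.75% downwards, and for anti-NCAM1 against control 9.03% and 7.85%. For both against GDNF the shares were 6.19% and 7.15%, and for both against anti-NCAM1 5.5% and 5.81%.

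The log2 fold change of Ccl7 for both agents against control was -1.35 (SE 0.55, 95% interval -2.52 to -0.18, unadjusted p = 0.0258). Over the 11332 genes the edgeR adjusted p was 0.99957, so the difference did not pass. Ccl7 was tested only because 2 control libraries and 1 GDNF library were high, which favoured a lower level against control. The separation, the interval and the unadjusted p are therefore no support for a difference. The group means were 1.47 ± 0.581 CPM for control and 0.581 ± 0.168 for both (SD, n = 3), with 1.04 ± 0.687 for GDNF and 0.695 ± 0.339 for anti-NCAM1. For anti-NCAM1 against control the log2 fold change was -1.08 (SE 0.52, adjusted p = 0.853) and for GDNF against control it was -0.55 (SE 0.48, adjusted p = 0.514). The latter was -0.46 without GDNF replicate 3, -1.15 without GDNF replicate 2 and -0.20 without GDNF replicate 1. The 3 comparisons share the control libraries, of which 2 held 14 and 15 counts and 1 held 5.

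**Figure D3:**
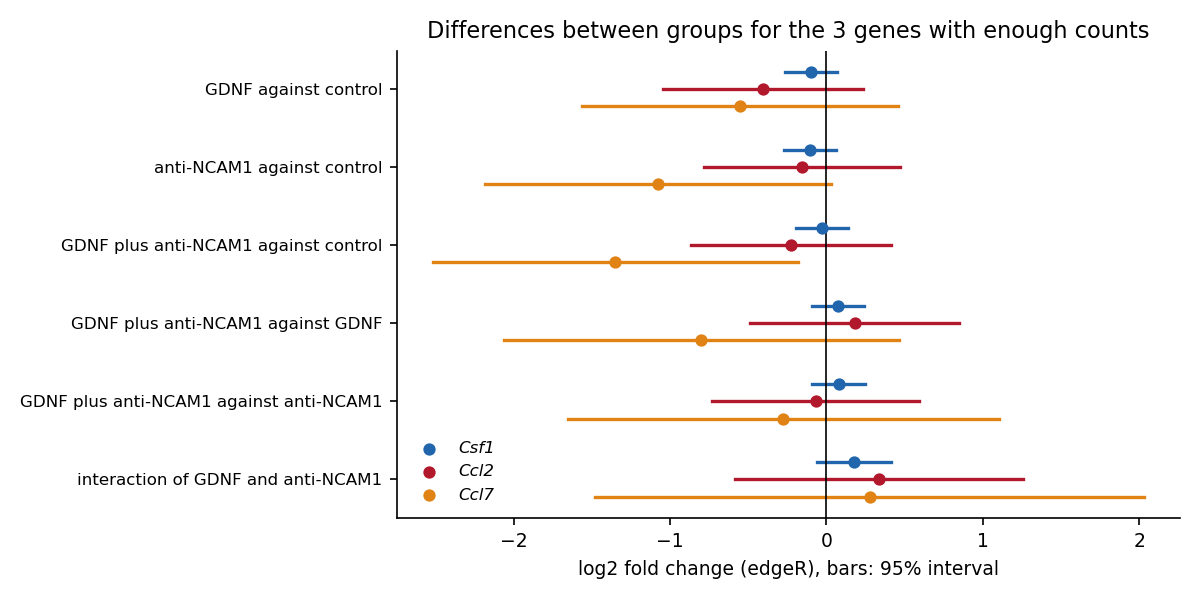
Log2 fold changes of Csf1, Ccl2 and Ccl7 in the 5 pairs of groups tested and for the interaction, from edgeR, with bars for the 95% interval. The intervals of Csf1 were the narrowest, and only that of Ccl7 for both agents against control, -2.52 to -0.18, did not reach 0. Ccl7 was tested only through its high control and GDNF libraries, so that interval is no support for a difference.

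With GDNF plus anti-NCAM1 against GDNF alone, the comparison that shows the antibody in the presence of the factor, the log2 fold changes were 0.07 for Csf1 (SE 0.08), 0.18 for Ccl2 (SE 0.32) and -0.80 for Ccl7 (SE 0.60). Without GDNF replicate 3 they were 0.02, 0.16 and -0.90. Against anti-NCAM1 alone they were 0.08, -0.07 and -0.28. The interaction was 0.34 for Ccl2 (SE 0.44) and 0.28 for Ccl7 (SE 0.83), with edgeR adjusted p-values of 0.687 and 0.878. Without GDNF replicate 3 these were 0.32 and 0.19 on the log2 scale, and for Ccl2 leaving out each library gave 0.011 (without GDNF plus anti-NCAM1 replicate 3) to 0.59 (without GDNF replicate 1). The median over all tested genes was within 0.01 of 0 on the log2 scale in each comparison.

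Ccl2 and Ccl7 share a receptor, and their levels were compared over the 12 libraries. Pearson's r of their log2 levels was 0.024 (permutation p = 0.942) and Spearman's rho was -0.035 (permutation p = 0.919), in the 1 pair computed. Without the 2 libraries farthest from the median of Ccl2 r was 0.457, and within groups it was -0.14. By Pearson's r over the 12 libraries, the tested genes most like Csf1 were Stab1 (0.903), Sparcl1 (0.902) and Rdh13 (0.884). Those most like Ccl2 were Cenpm (0.892), Rgma (0.891) and Ighmbp2 (0.879), and those most like Ccl7 were Gm7160 (0.899), Zfp579 (0.826) and Pet100 (0.805). These values are the highest of 11332 genes and have no test.

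The 7 members under the limit of testing can be given only as counts. Ccl5, a chemokine of T cells and monocytes on chromosome 11, had 5, 1 and 2 counts in the control libraries, 2, 4 and 3 with GDNF, 0, 3 and 0 with anti-NCAM1, and 1, 4 and 1 with both. Summed over a group, that was 0.361 CPM in control (exact Poisson 95% interval 0.156 to 0.712), 0.412 with GDNF (0.188 to 0.782), 0.151 with anti-NCAM1 (0.0311 to 0.441) and 0.324 with both (0.119 to 0.706). These 4 intervals overlap one another.

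Cxcl10, the interferon-induced ligand of Cxcr3, had 2, 1 and 0 counts in the control libraries, 2, 2 and 1 with GDNF, 1, 1 and 0 with anti-NCAM1, and 2, 1 and 2 with both. The 15 counts correspond to 0.182 CPM over the 12 libraries, with a Poisson interval of 0.102 to 0.3005. Cxcl1, a neutrophil chemokine, had 1 count in GDNF replicate 3 and 1 in GDNF plus anti-NCAM1 replicate 1, and none elsewhere. No order of the groups can be read from such counts.

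The 4 genes with no count lie on chromosomes 5 (Cxcl5 and Il6), 6 (Cxcl12) and 11 (Csf2). Cxcl5 is a neutrophil chemokine, Cxcl12 the stromal ligand of Cxcr4, Csf2 the factor known as GM-CSF and Il6 the cytokine that acts through Il6st. In a group of 3 libraries the same limit of 3 counts was 0.136 CPM for control, 0.137 for GDNF, 0.151 for anti-NCAM1 and 0.162 for both. Of the 31-base words of the transcripts, Csf2 shared 9.22% with other genes and Cxcl10 4.47%, all of the latter with its opposite-strand neighbour Art3, which had 3 counts. For the other 8 members the shared part was at most 0.871%.

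Other ligands of the same families were few. Of 31 other chemokines, 2 were tested and 20 had no count. Cx3cl1, a membrane-bound chemokine, was at 6.48 CPM and Ccl25 was at 8.27 CPM. Ccl25 overlaps Elavl1 on the opposite strand and shared 2.32% of its 31-base words with it. Without a statement that strand was used, reads from that shared part cannot be told apart. Cxcl2, a close relative of Cxcl1, had 3 counts in all. Neither of the tested 2 passed in any comparison, and their median log2 fold change for GDNF against control was -0.03, against 0.00 for all tested genes.

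Of 18 other colony-stimulating factors and cytokines of these families, 6 were tested, 4 had no count and none passed. Vegfa, the angiogenic growth factor, was the highest, at 157 ± 5.91 CPM over the 12 libraries. Kitl, the stem cell factor that acts on Kit, was at 68.7 ± 7.60 CPM, and Clcf1, a ligand of the Il6 family, at 14.3 ± 2.11. Csf3, which encodes G-CSF, had 1 count in the 12 libraries.

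Il34 encodes the other ligand of the Csf1 receptor. Its level was 21.9, 20.8 and 20.3 CPM in the control libraries, 19.2, 18.9 and 7.79 with GDNF, 16.2, 20.7 and 18.0 with anti-NCAM1, and 22.2, 22.9 and 20.3 with both. All 3 GDNF libraries lay below all control libraries, as 7.75% of tested genes did, and below all libraries with both agents, a separation found for 6.19% of tested genes, but GDNF replicate 3, the library that stood apart, was far below the rest. The log2 fold change for GDNF against control was -0.47 (SE 0.22, edgeR adjusted p = 0.248) and -0.14 without GDNF replicate 3. For the interaction it was 0.71 (SE 0.31, adjusted p = 0.278), and 0.39 without that library. Per kb of transcript Il34 was at 10.9 CPM, below Csf1 in level.

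Most receptors of chemokines, colony-stimulating factors and Il6 were at or near 0. Of 29 listed, which include receptors that bind no member, 4 were tested and 13 had no count. Ccr2, Cxcr4, Csf2ra and Csf2rb had no count, and Csf1r, the receptor of Csf1 and Il34, had 2 counts in 12 libraries, beside 6198 for Csf1. The receptor chains of Il6 were the exception: Il6st was at 163 ± 7.33 CPM and Il6ra at 65.3 ± 3.57, while Il6 itself had no count. Ackr3, a scavenging receptor of Cxcl12, was at 9.57 ± 1.72 CPM with its ligand at 0, and Ccr7, which binds Ccl19, at 1.64 ± 0.465. None of the 4 passed in any comparison, and for GDNF against control their log2 fold changes were between -0.19 and 0.05.

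**Figure D4:**
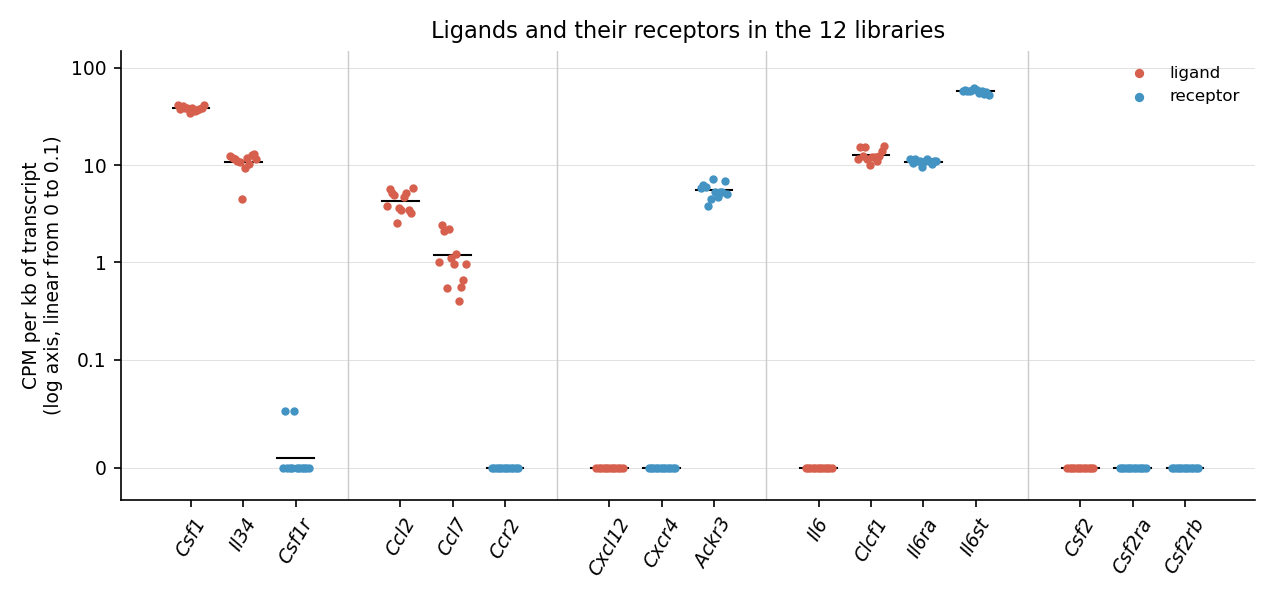
Level in CPM per kb of transcript of ligands (red) and their receptors (blue) in the 12 libraries, on a log axis that is linear from 0 to 0.1, with 1 point per library and a bar at the mean. Csf1 lay at 38.4 with Csf1r near 0, whereas Il6st lay at 57.5 and Il6ra at 10.9 with Il6 at 0.

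The regulators that act on these genes were present. Of 21 transcription factors, inhibitors and mRNA decay factors 20 were tested, and 0 passed in any comparison. Rela and Nfkb1, which encode NF-κB subunits, were at 65.0 ± 6.08 and 73.3 ± 4.70 CPM. The most abundant of the list were Hif1a, the hypoxia-induced factor, at 412 ± 47.7 CPM, Khsrp, an RNA-binding protein that promotes the decay of AU-rich cytokine mRNAs, at 223 ± 21.6, Stat3 at 166 ± 11.1 and Jun at 102 ± 8.42. For GDNF against control 17 of the 20 were below 0, with a median log2 fold change of -0.11 against 0.00 for all tested genes. Of the 20, 15 were also below 0 for anti-NCAM1 against control and 13 for both agents against control. These 3 comparisons share the control libraries. Above 0 were 15 of the 20 for both agents against GDNF, and 17 for both against anti-NCAM1 and for the interaction. The part of GC content in these directions was not tested. With GDNF against control 3 of the 20 had an unadjusted p under 0.05, as had 20.3% of all tested genes. The GDNF values include GDNF replicate 3, which was the lowest library for Khsrp and Stat3 and the highest for Hif1a and Jun.

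Khsrp was the regulator nearest to a call. Its level was 247, 247 and 249 CPM in the control libraries, 221, 198 and 191 with GDNF, 204, 233 and 194 with anti-NCAM1, and 238, 223 and 231 with both. The 3 groups with an agent each lay below the control libraries, as 7.75% of tested genes did with GDNF, 7.85% with anti-NCAM1 and 6.26% with both. The log2 fold change for GDNF against control was -0.29 (SE 0.08, edgeR adjusted p = 0.165), and DESeq2 gave an adjusted p of 0.0491. Khsrp shared 7.67% of its 31-base words with other genes, and its GC content was 59.2%. Over the tested genes, the log2 slope of a library on GC content, per 10 points, was 0.081 to 0.125 in control. It was 0.084, -0.159 and -0.353 with GDNF, -0.089, 0.096 and -0.084 with anti-NCAM1, and 0.054 to 0.067 with both. The part of this slope in the level of Khsrp was not tested. The interaction of Khsrp was 0.42 (SE 0.11, adjusted p = 0.240). Without GDNF replicate 3 the values were -0.25 for GDNF against control and 0.38 for the interaction, with adjusted p-values of 0.184 and 0.0659.

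The 4 lists of cell type markers were summed per library. The summed level of the 8 leukocyte markers was 7.43 to 9.96 CPM in control, 7.53 to 8.09 with GDNF, 8.36 to 10.1 with anti-NCAM1 and 7.78 to 8.63 with both. The 5 endothelial markers summed to 3.92 to 4.32 CPM in control and 2.97 to 5.11 with GDNF. They summed to 3.53 to 4.22 with anti-NCAM1 and 2.77 to 3.14 with both agents. Over the 12 libraries Pecam1 had 159 counts, Vwf 84, Cdh5 66, Tek 6 and Kdr 2. Ccl7 was separated for both agents against control, and the part of these markers in that result was not tested. The epithelial list summed to 543 to 581 CPM in control and 521 to 601 with GDNF. It summed to 570 to 615 with anti-NCAM1 and 588 to 607 with both. In the same order, the fibroblast list summed to 269 to 283, 263 to 280, 269 to 284 and 263 to 268. Krt8, at 536 CPM over the 12 libraries, made up most of the epithelial sum, and Pdgfra and Pdgfrb nearly all of the fibroblast sum. None of these 4 lists had a gene that passed.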

How the data were processed

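RNA was prepared with a column kit and made into Illumina libraries, per the labels' protocols. The values, as deposited, are unscaled whole-number counts by gene ID. Tools listed in the submitters' processing notes are FastQC, kallisto 0.46.2 and MultiQC, and the builds listed are mm10 and GRCm39; the build behind the counts, the rounding of estimated counts and the use of strand are not given in the sources used here. Symbols were matched to 52081 of the IDs. Genes were kept with filterByExpr (minimum count 10, minimum total 15), which left 11332. Counts were TMM-scaled and fitted in 1 model of 4 groups by edgeR 4.0.16 (R 4.3.3), with 2-sided quasi-likelihood F tests and Benjamini-Hochberg adjustment over all tested genes within a comparison, called at 0.05. The interaction is the GDNF effect with antibody minus that without. CPM use TMM library sizes, and lengths and shared 31-base words come from GENCODE vM21. Correlations use log2(CPM + 2) and 100000 permutations. Replicate numbers did not pair the libraries. No replicate pair agreed within sampling noise. Alternatives were limma-voom (limma 3.58.1), DESeq2 1.42.0, other scalings, filters and designs, and each library left out. The script was tested on simulated data. The members and gene lists were chosen with earlier results of these data known. The genes named are the 10 members, the 3 genes most like each tested member, up to 4 most abundant tested genes of each list and any that passed; receptors of the members, Rela, Nfkb1, Cxcl2, Csf3 and the markers with few or no counts were added after their values were seen.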

Additional observations from a re-analysis of the deposited data

How the results depend on the processing

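None of the members was called in any alternative: of 389 refits of Csf1, Ccl2 and Ccl7 in the 6 comparisons, 0 passed, 379 kept their direction and 10 reversed. The DESeq2 refits of these 3 genes for GDNF against control had no adjusted p and could not pass. Ccl2 for both agents against anti-NCAM1 was 0.0018 with the GC and length trend removed, and leaving out each library in turn gave -0.39 to 0.078. The same gave -0.14 to 0.44 for Ccl2 against GDNF, -0.59 to 0.070 for Ccl7 against anti-NCAM1, -0.072 to 0.88 for the interaction of Ccl7 and -0.072 to 0.0043 for Csf1 with both agents against control. Ccl7 with both agents against control stayed between -1.61 and -1.13. Its entry into the test through high control and GDNF libraries favoured a lower level in these refits too. That range is therefore no support for a difference. The count of all genes called, 0 in each comparison, moved more. For GDNF against control it was 31 with DESeq2, 736 without the filter and 0 to 2696 leaving out libraries (2696 without GDNF replicate 1). For anti-NCAM1 against control it was 8 without the filter, 33 with only the groups compared and 0 to 8 leaving out libraries (8 without GDNF replicate 3). For both against GDNF it was 348 without the filter and 0 to 1986 leaving out libraries (1986 without GDNF replicate 1). For both against anti-NCAM1 it was 4 without the filter and 5 with only the groups compared, and for both against control 4 and 25. For the interaction it was 403 without the filter and 0 to 1875 leaving out libraries (1875 without GDNF replicate 1, 14 without GDNF replicate 3). The cause was not tested. Il34 and Khsrp were called for the interaction without the filter (adjusted p = 0.0495 and 0.0452). Khsrp was also called for GDNF against control without the filter and with DESeq2 (0.0379 and 0.0491). The edgeR fit without the filter had 179232 degrees of freedom per gene, so it pooled the spread over all genes. Without GDNF replicate 1, the GDNF group held replicates 2 and 3, the latter the library that stood apart. In that fit Il34, Kitl and Khsrp passed in 3 comparisons: GDNF against control (0.0350, 0.0165 and 0.00552), the interaction (0.0401, 0.0191 and 0.00905) and both against GDNF (0.0335, 0.0330 and 0.0386). Hif1a (0.0347) and Erbb2 (0.0208) passed in the last, and Epcam (0.0296) in the interaction. For GDNF against control Kitl was 0.22 on the log2 scale with all libraries and 0.10 without GDNF replicate 3 (edgeR adjusted p = 0.697).

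With the replicate number as a block, 0 genes were called in each comparison, and the members' 18 log2 fold changes moved by at most 0.060, to an adjusted p of 0.443 or more. Same-numbered libraries correlated at -0.147 to 0.101, and 5 of 12 libraries were closest to their own number. DESeq2 gave no adjusted p for the 3 members in GDNF against control. At 2 to 15 counts per library, depth limits what can be said of Ccl7 and of the 7 members below it.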
